A study of Mus musculus with 6 samples.

Results

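Glucocorticoid response genes are genes whose transcripts increase when the stress hormone corticosterone reaches a tissue. Of 10 such genes (Fkbp5, Sgk1, Tsc22d3, Sult1a1, Pdk4, Plin4, Errfi1, Klf9, Zbtb16 and Ddit4), followed here through the array's annotation, the array held 24 probe sets among 45037 probe sets for 18193 genes. The arrays were Affymetrix mouse expression arrays hybridised with total RNA from mouse cerebral cortex, 3 labelled wild type and 3 labelled as double knockouts of Egr1 and Egr3, named the knockout-labelled arrays here. Both targeted genes encode transcription factors that neuronal activity induces, and the design sets cortex with both knocked out against wild type cortex. Strain, sex, age, treatment, time of day, the form of the deleted alleles and whether each array is a separate animal are not stated by the sources at hand. The p-values therefore measure the spread between arrays, which may be technical.

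Corticosterone enters cells and binds the glucocorticoid receptor, encoded by Nr3c1, or the mineralocorticoid receptor, encoded by Nr3c2. The receptor is held by Hsp90 chaperones and their partners until hormone binds, and then acts in the nucleus at glucocorticoid response elements, imperfect palindromes of a short half-site. In the brain its targets are active in glia and blood vessels as well as in neurons, and follow both stress and the daily rhythm of the hormone. Several of them, such as Fkbp5, dampen the response.

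All arrays carried cortical markers, with Tbr1 signals from 302 to 531. The Egr3 signal was 1594 ± 941 (SD, n = 3) on the wild type arrays against 405 ± 89.8 (SD, n = 3) on the knockout-labelled arrays (log2 difference -1.80, SE 0.32, limma adjusted p = 0.0361). Egr1 did not fall with the label but was higher on every knockout-labelled array than on any wild type array (log2 difference 0.67, SE 0.17, adjusted p = 0.108). It read 1247, 2054 and 1430 on the wild type arrays and 2116, 2647 and 2657 on the knockout-labelled arrays. Over the alternatives the adjusted p of Egr1 ranged from 0.0172 to 0.442. Egr3 no longer passed when wild type replicate 1 or any one of the double knockout replicates was left out (adjusted p = 0.0784 to 0.159), with no filter (0.177) or with no intensity trend (0.0692). The title of double knockout replicate 1 is worded like those of the wild type arrays, although its description gives the double knockout. The Egr3 signal of double knockout replicate 1, at 339, was the lowest of all arrays. It was 370 and 507 on double knockout replicates 2 and 3, and 1189, 2670 and 924 on the wild type arrays. Double knockout replicate 2 was the one array of a female: its Xist signal was 3140, and that of the other 5 arrays at most 42.5. Spiked control transcripts were dim in wild type replicate 1, at 0.415 of the other arrays' median. The choroid plexus transcript Ttr was high in wild type replicate 3 and double knockout replicate 1, at 10347 and 4697, against 34.6 to 375 elsewhere. The ratio of 3' to 5' Gapdh control signal was 0.806 to 0.873 on the wild type arrays and 0.881 to 0.9497 on the knockout-labelled arrays. The same ratio for Actb overlapped, at 1.58 to 1.95 on the wild type arrays and 1.68 to 1.89 on the knockout-labelled arrays. The part of these differences in the results below was not tested, except where a value without an array is given.

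Every tested probe set of the response genes had a higher mean log2 signal on the knockout-labelled arrays, 20 of 20 for 9 genes, against 51.6% of all 22518 tested probe sets. None of the 20 passed an adjusted p of 0.05 in limma, where 1.02% of all tested probe sets passed. At an unadjusted p under 0.05, 6 of the 20 were higher, against 8.26% of all tested probe sets. Taking the brightest tested probe set of each gene, the median log2 difference was 0.40, against 0.0093 over all tested probe sets. The groups did not overlap for 3 of the 20 (Sgk1, Errfi1 and the brightest Klf9 probe set), against 11.5% of all tested probe sets with every knockout-labelled array above every wild type array. The higher signals lay mainly on double knockout replicates 2 and 3, which were the 2 highest arrays for 14 of the 20, against 11.5% of all tested probe sets. More RNA per cell and more cells of a type cannot be told apart in whole tissue.

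**Figure D1:**
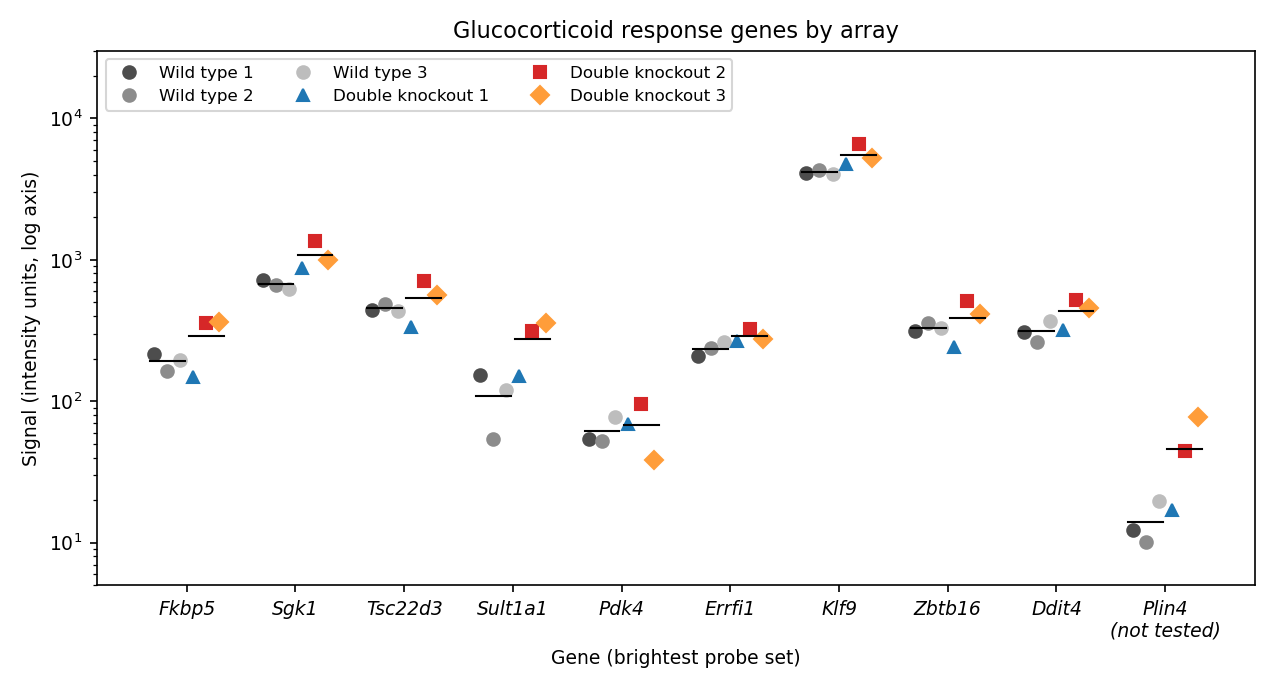
Signal of the brightest probe set of each of the 10 genes in each array (intensity units, log axis); points are arrays and short lines are group means, 3 arrays each. Double knockout replicates 2 and 3 lie above the other 4 arrays for every gene but Pdk4, and double knockout replicate 1 is the lowest array for Fkbp5, Tsc22d3 and Zbtb16.

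Fkbp5 encodes a cochaperone that lowers the hormone affinity of the glucocorticoid receptor and so closes a short feedback loop. Its brighter probe set, 1416125_at, read 216, 164 and 196 in wild type replicates 1 to 3 and 148, 358 and 364 in double knockout replicates 1 to 3. Double knockout replicate 1 was thus the lowest of all arrays and the other 2 the highest, so the groups overlapped. Means were 192 ± 26.5 (SD, n = 3) and 290.1 ± 123 (SD, n = 3), a log2 difference of 0.47 (SE 0.28, adjusted p = 0.438). A second probe set, 1448231_at, was also high on double knockout replicates 2 and 3, with replicate 1 within the wild type range, at 79.9, 65.2 and 64.9 on the wild type arrays and 66.7, 187 and 187 on the knockout-labelled arrays (log2 difference 0.81, SE 0.31, adjusted p = 0.225). Without double knockout replicate 1 both probe sets passed the test, with log2 differences of 0.87 (SE 0.15, adjusted p = 0.0447) and 1.25 (SE 0.16, adjusted p = 0.0199). They were the 2 of the 20 that passed in that fit, where 0.635% of all tested probe sets did. Over all alternatives the adjusted p ranged from 0.0447 to 0.783 and from 0.0199 to 0.544. With 1 array left out, the log2 differences ranged from 0.26 to 0.87 and from 0.60 to 1.25. Another Fkbp5 probe set, 1447736_at, read at most 6.82 on any array and was not tested.

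Tsc22d3 encodes GILZ, a leucine zipper protein that carries part of the anti-inflammatory action of glucocorticoids. Its brightest probe set, 1420772_a_at, read 445, 489.7 and 436 on the wild type arrays and 334, 705 and 567 on the knockout-labelled arrays. Again double knockout replicate 1 was lowest and replicates 2 and 3 were highest (log2 difference 0.16, SE 0.22, adjusted p = 0.762). The probe set 1425281_a_at read 455, 401 and 268 on the wild type arrays and 353, 645 and 480.1 on the knockout-labelled arrays (log2 difference 0.37, SE 0.23, adjusted p = 0.441). The dimmer 1425557_x_at, whose suffix marks probes that may match other transcripts, differed by 0.22 (SE 0.16, adjusted p = 0.513). Without double knockout replicate 2 the difference of 1420772_a_at turned to -0.065 (adjusted p = 0.936). The probe set 1444365_at read at most 19.2 and was not tested.

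Sgk1 encodes a kinase that regulates ion channels and transporters and is prominent in oligodendrocytes and neurons after stress. Its 1 probe set, 1416041_at, read 724, 665 and 624 on the wild type arrays and 874, 1349.9 and 1002 on the knockout-labelled arrays. Every knockout-labelled array was above every wild type array, including replicate 1. The means of 671 ± 50.4 (SD, n = 3) and 1075 ± 246 (SD, n = 3) gave a log2 difference of 0.65 (SE 0.15, adjusted p = 0.0793), the smallest adjusted p of the 20. It did not pass under any alternative, with adjusted p from 0.0619 to 0.249 and log2 differences from 0.47 to 0.78.

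The sequences before the transcript starts of these genes were searched for the receptor's binding letters, because the members are known as its targets. RefSeq (GRCm38.p6) gave 17 start sites for 9 of the 10 genes, and the 250 bases before each start were read. The full palindrome is AGAACA and TGTTCT separated by any 3 bases. It reads the same on both strands and contains the shorter core ACANNNTGT and both orientations of the half-site (AGAACA and TGTTCT). Among 32851 such windows of all genes 3 held the full palindrome (0.00913%), and 1 of these was a window of Sgk1. The match, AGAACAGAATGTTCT, lies at chr10:21993701-21993715, where its first base is 189 bases before the nearest downstream start of Sgk1 and 965 bases before the last of its 6 starts. The core was found in 2 of the 17 windows, both of Sgk1, against 5.84% of all windows. The half-site was found in 5 of the 17, of Sgk1, Sult1a1 and Tsc22d3, against 16.1%. Sgk1 alone gave 6 of the 17 windows. By gene, the core was in 1 of 9 and the half-site in 3 of 9, against 1828 and 4912 of all 27025 genes. The Egr letters GCGTGGGCG (CGCCCACGC on the other strand) were found in none of the 17, against 0.536%. The windows of Sgk1 with the palindrome (chr10:21993640-21993889, plus strand), of Sult1a1 with 2 half-sites (chr7:126676419-126676668, minus strand), of Tsc22d3 with 1 half-site (chrX:140600523-140600772, minus strand) and of Fkbp5 with no match (chr17:28486150-28486399, minus strand) are printed 5′ to 3′ to show how the genes differ, with matches in capitals.
Sgk1: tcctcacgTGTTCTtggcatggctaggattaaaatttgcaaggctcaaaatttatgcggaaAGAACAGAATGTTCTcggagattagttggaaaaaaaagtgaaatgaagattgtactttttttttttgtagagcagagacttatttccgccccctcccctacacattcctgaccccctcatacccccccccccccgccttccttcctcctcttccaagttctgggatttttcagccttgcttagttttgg
Sult1a1: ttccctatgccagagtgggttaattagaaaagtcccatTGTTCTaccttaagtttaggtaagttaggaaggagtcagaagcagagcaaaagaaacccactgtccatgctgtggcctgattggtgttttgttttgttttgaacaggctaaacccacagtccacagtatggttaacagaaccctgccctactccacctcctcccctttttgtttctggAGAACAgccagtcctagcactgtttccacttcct
Tsc22d3: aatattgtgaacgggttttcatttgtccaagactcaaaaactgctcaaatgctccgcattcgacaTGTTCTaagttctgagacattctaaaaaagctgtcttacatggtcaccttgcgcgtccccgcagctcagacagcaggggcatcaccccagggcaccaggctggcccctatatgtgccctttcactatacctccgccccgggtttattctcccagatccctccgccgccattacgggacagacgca
Fkbp5: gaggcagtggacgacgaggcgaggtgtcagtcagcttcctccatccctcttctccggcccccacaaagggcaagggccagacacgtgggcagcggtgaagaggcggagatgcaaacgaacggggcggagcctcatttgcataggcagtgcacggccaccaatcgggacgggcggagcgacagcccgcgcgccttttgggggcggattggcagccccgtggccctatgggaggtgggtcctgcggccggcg
A match of letters is a description of the sequence. The windows are short, and no match says only that these letters are not in them.

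Errfi1 and Ddit4 encode inhibitors of growth signalling. Errfi1 binds and inhibits the epidermal growth factor receptor, and its probe set 1416129_at read 207, 237 and 262 on the wild type arrays and 265, 326 and 275 on the knockout-labelled arrays. The groups did not overlap, but wild type replicate 3 and double knockout replicate 1 were nearly equal (log2 difference 0.28, SE 0.13, adjusted p = 0.317). The second Errfi1 probe set, 1419816_s_at, differed by 0.23 (SE 0.14, adjusted p = 0.431) and overlapped. Ddit4, also called Redd1, restrains the mTORC1 kinase and also answers to hypoxia and other stress. It read 307, 263 and 368 on the wild type arrays and 316, 524 and 454 on the knockout-labelled arrays, so that replicate 1 lay within the wild type range and replicates 2 and 3 above it. The means were 313 ± 52.5 (SD, n = 3) and 431 ± 105 (SD, n = 3), a log2 difference of 0.43 (SE 0.18, adjusted p = 0.280).

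The transcription factors Klf9 and Zbtb16 had 6 and 3 tested probe sets. Klf9 is a zinc finger factor induced by glucocorticoid and thyroid hormones in neurons, and its brightest probe set, 1456341_a_at, read 4095, 4278 and 4059.8 on the wild type arrays and 4724, 6623 and 5259 on the knockout-labelled arrays. All 3 of the latter were above wild type, with means of 4144 ± 117 (SD, n = 3) and 5536 ± 979 (SD, n = 3) and a log2 difference of 0.40 (SE 0.13, adjusted p = 0.181). The other 5 tested Klf9 probe sets differed by 0.21 to 0.38 and overlapped between groups. Several of them were low in wild type replicate 3, at 186 against 412 and 291 in the other wild type arrays for 1436952_at. The Klf9 probe set 1452723_at, read at most 18.7 and was not tested. Zbtb16, which encodes the repressor PLZF, read on 1439163_at 312, 355 and 327 on the wild type arrays and 241, 511 and 412 on the knockout-labelled arrays. The low value of replicate 1 and the high values of replicates 2 and 3 were placed as for the brighter Fkbp5 probe set (log2 difference 0.16, SE 0.22, adjusted p = 0.767). The other Zbtb16 probe sets differed by 0.33 (1419874_x_at) and 0.16 (1427638_at), and neither passed.

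The metabolic members were Sult1a1, Pdk4 and Plin4. Sult1a1, a sulfotransferase of phenols, showed the largest difference of the tested probe sets, at 152, 54.5 and 121 on the wild type arrays and 149.8, 314 and 360.04 on the knockout-labelled arrays. Double knockout replicate 1 fell between wild type replicates 1 and 3, while replicates 2 and 3 exceeded every other array. The log2 difference was 1.22 (SE 0.35, adjusted p = 0.133), and the adjusted p ranged from 0.0697 to 0.376 over the alternatives. Pdk4, a kinase that shuts off pyruvate dehydrogenase and so spares glucose, read 54.4, 52.7 and 76.9 on the wild type arrays and 69.3, 96.2 and 38.3 on the knockout-labelled arrays. Here replicate 3 was the lowest array and replicate 2 the highest (log2 difference 0.070, SE 0.25, adjusted p = 0.926). Plin4, a coat protein of lipid droplets, lay below the filter on dim probe sets and was not tested. It read 12.2, 10.1 and 19.9 on the wild type arrays and 17.1, 44.6 and 76.8 on the knockout-labelled arrays, which again placed replicates 2 and 3 above the rest.

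**Figure D2:**
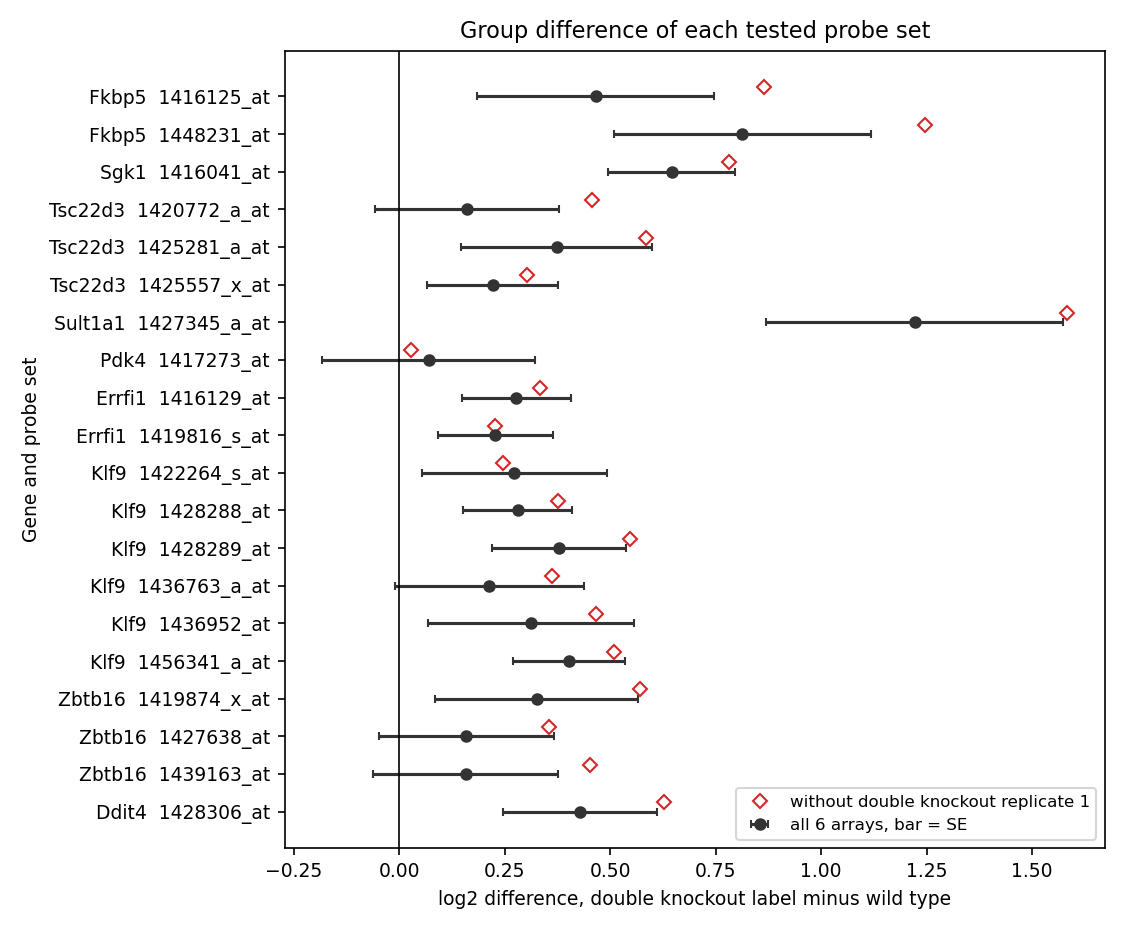
Log2 difference of each of the 20 tested probe sets, knockout-labelled arrays minus wild type; black points and bars are the value and SE over all 6 arrays and open red diamonds the value without double knockout replicate 1. All black points lie above 0, from 0.070 for Pdk4 to 1.22 for Sult1a1, and the diamonds of Fkbp5 stand at 0.87 and 1.25. Values without another array are not drawn, and those of Fkbp5 go down to 0.26 and 0.60.

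Among the 20 tested probe sets, double knockout replicate 2 was the highest array for 13 and replicate 3 for 6, while wild type replicate 2 was highest for 1. Over all tested probe sets replicates 2 and 3 were highest for 18.8% and 15.6%. Double knockout replicate 1 was the highest array for none of the 20 and the lowest for 4, against 11.9% and 12.8% of all tested probe sets. Wild type replicate 3 was the lowest array for 10 of the 20, against 18.8% of all tested probe sets. By the brightest tested probe set of each gene it was the lowest array for 2 of 9, so the 10 include repeat probe sets of the same genes. The per-array median of the 9 tested genes, relative to the wild type mean on the log2 scale, was 0.15, 0.67 and 0.34 in double knockout replicates 1, 2 and 3. On the wild type arrays it lay from -0.017 to 0.036. Double knockout replicate 2, the array of the female, had the highest median, and replicate 3, with an Xist signal of 18.8, the next highest. The part of sex was not tested. Without double knockout replicate 2 the median log2 difference of the 9 genes was 0.27, without wild type replicate 1 as well it was 0.26, and without double knockout replicate 1 it was 0.51.

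**Figure D3:**
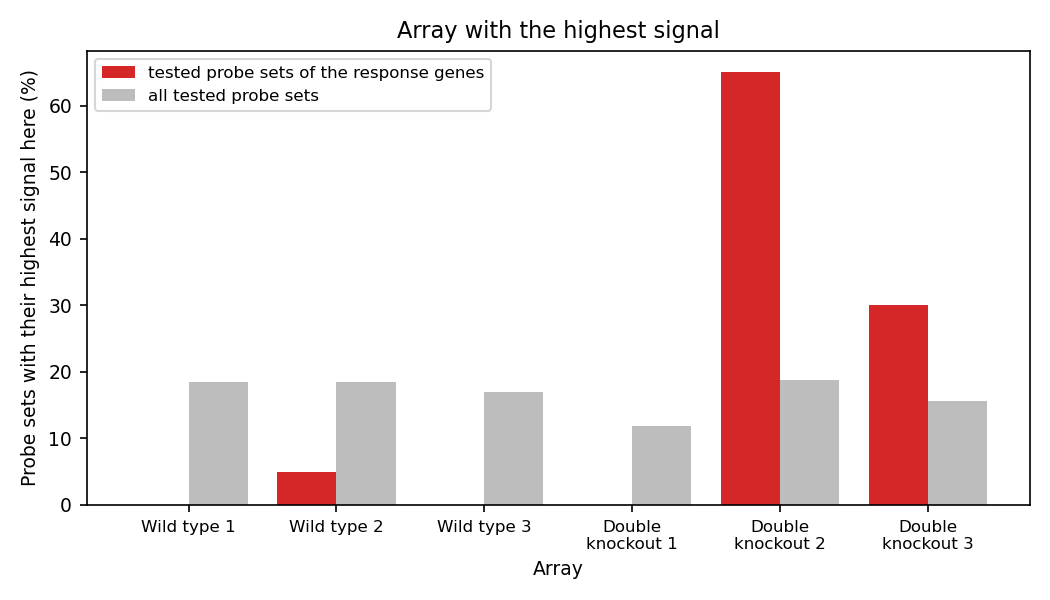
Share of probe sets whose highest signal was on each array (percent of probe sets), for the 20 tested probe sets of the response genes (red) and all 22518 tested probe sets (grey). Double knockout replicates 2 and 3 hold 13 and 6 of the 20, against 18.8% and 15.6% of all.

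Of 20 other genes known to respond to glucocorticoids, 17 were tested, of which 1 rose, none fell and 16 did not pass. Here and in the lists that follow, a gene is counted by its brightest tested probe set. Of all tested probe sets 0.426% rose and 0.591% fell, the shares that stand beside the counts of each list. Fam107a, an actin-binding protein of neurons and astrocytes that stress induces, read 3200, 3742 and 2909 on the wild type arrays and 4727, 5454 and 5796 on the knockout-labelled arrays (log2 difference 0.70, SE 0.13, adjusted p = 0.0389). It was high on all 3 knockout-labelled arrays, and a second of its 3 tested probe sets also rose (log2 difference 0.83, adjusted p = 0.0154; not past the threshold without wild type replicate 1 or double knockout replicate 2 or 3, adjusted p = 0.0501 to 0.0963), while the dimmest differed by 0.20 (adjusted p = 0.627). Its call was lost with quantile normalization (0.50, adjusted p = 0.121), with no filter, with no intensity trend and under the replicate block, and without wild type replicate 1 or any one of the double knockout replicates (adjusted p = 0.0576 to 0.190), in a range of 0.0245 to 0.274 over all alternatives. The median log2 difference of the 17 genes was 0.39, with 12 higher and 5 lower. The groups did not overlap for 7 with the double knockout label above and for 1, the transglutaminase gene Tgm2, with it below, against 11.5% and 10.7% of all tested probe sets. The other tested Tgm2 probe sets differed by -0.37 to 0.12. Of these 1455900_x_at also had the label below without overlap, and the rest overlapped. Double knockout replicates 2 and 3 were the 2 highest arrays for 11 of the 17, against 11.5% of all tested probe sets. Hif3a, a hypoxia-inducible factor and known receptor target, was among these 11 but did not pass (adjusted p = 0.342). It read 64.3, 48.5 and 79.7 on the wild type arrays and 57.2, 129 and 129 on the knockout-labelled arrays. Cdkn1a had the largest difference in size of the 17 and was among the 5 lower (log2 difference -0.87, adjusted p = 0.219). It read 197, 333 and 141 on the wild type arrays and 63.5, 157 and 122 on the knockout-labelled arrays, and the groups overlapped.

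Neither receptor gene passed the test. Nr3c1 read 495, 481 and 393 on the wild type arrays and 473, 426 and 549 on the knockout-labelled arrays on its brightest probe set (log2 difference 0.078, SE 0.13, adjusted p = 0.811). Its other 4 tested probe sets differed by -0.13 to -0.038. Nr3c2 read 118, 96.4 and 191 against 159.8, 123 and 141 (log2 difference 0.10, SE 0.21, adjusted p = 0.849). None of the 13 tested genes for the receptors, their chaperones and cofactors and corticotropin-releasing hormone signalling passed, with 9 higher and 4 lower and a median of 0.073. Those with the largest differences were the cochaperone Stip1 (-0.31, adjusted p = 0.175), the corepressor Nrip1 (0.31, adjusted p = 0.219) and the receptor Crhr1 (0.26, adjusted p = 0.529). The other tested Nrip1 probe sets differed by 0.46, 0.50 and 0.55, each with every knockout-labelled array above wild type and none past the threshold. The other Crhr1 probe set differed by -0.043.

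Of the 15 tested paralogs of the members none passed on its brightest probe set, and the median of these was -0.019, with 5 higher and 10 lower. One dimmer probe set fell, 1439111_at of Tsc22d1, a gene related to Tsc22d3. It read 103, 87.0 and 73.4 on the wild type arrays and 37.8, 30.8 and 18.2 on the knockout-labelled arrays, so the groups did not overlap (log2 difference -1.22, SE 0.20, adjusted p = 0.0275). It did not pass without wild type replicate 1 or double knockout replicate 2 or 3 (adjusted p = 0.0829 to 0.0963), with no filter (0.149) or with wild type replicate 1 and double knockout replicate 2 both absent (0.243), and with a pseudocount of 64 its difference was -0.71. The other 5 tested Tsc22d1 probe sets differed by -0.25 to 0.088, and none passed. Among brightest probe sets the 3 with the largest differences were Ddit4l (-0.51, adjusted p = 0.239), Pdk2 (0.27, adjusted p = 0.260) and Plin3 (-0.26, adjusted p = 0.395). Sgk3, a kinase related to Sgk1, differed by -0.057 on its brightest probe set and by 0.17 and 0.089 on its other tested probe sets. Because Ddit4 also answers to oxygen and to stress of the endoplasmic reticulum, those programs were examined. Of 9 hypoxia genes none passed (median 0.084, 5 higher), with Egln3 at -0.65 (adjusted p = 0.272), Slc2a1 at 0.38 (adjusted p = 0.212) and Ankrd37 at 0.26 (adjusted p = 0.384). Of 5 integrated stress genes none passed (median -0.22, 1 higher), with Ppp1r15a at 0.40 (adjusted p = 0.257), Atf4 at -0.28 (adjusted p = 0.283) and Chac1 at -0.25 (adjusted p = 0.437).

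**Figure D4:**
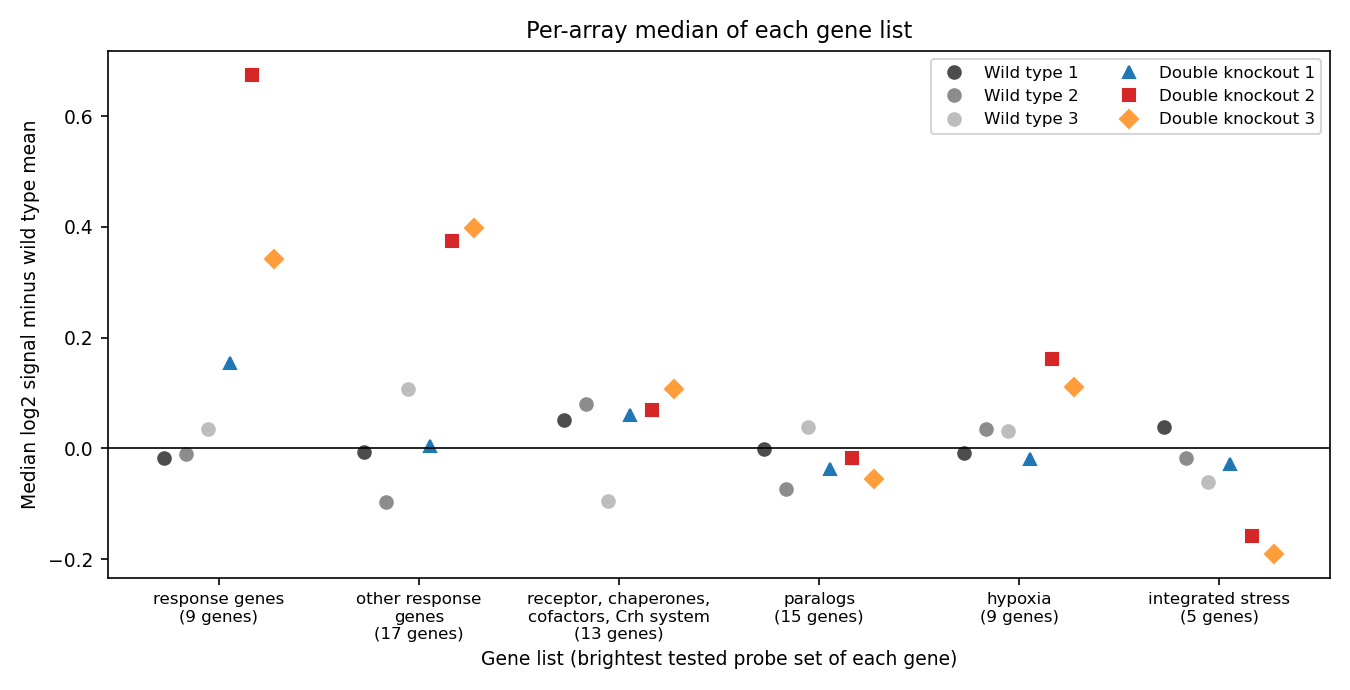
Per-array median of each gene list, as log2 signal of the brightest tested probe set of each gene minus the wild type mean. Double knockout replicates 2 and 3 stand at 0.67 and 0.34 for the response genes and at 0.37 and 0.40 for the other response genes, while the receptor list lies between -0.096 and 0.11 and the paralogs between -0.073 and 0.039 on every array.

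Markers of the cell types of cortex also varied from array to array. All 8 tested microglial markers read lower on the knockout-labelled arrays, none past the threshold, and their per-array median was -0.23, -0.52 and -0.42 in replicates 1, 2 and 3. Their summed signal was 3394 to 3918 on the wild type arrays and 2582 to 3169.9 on the knockout-labelled arrays. Of 8 astrocyte markers 1 fell, the water channel Aqp4 (log2 difference -0.96, adjusted p = 0.0139; 0.0568 without wild type replicate 1 and 0.067 without double knockout replicate 3), 4 were higher and 4 lower, and their per-array medians lay between -0.027 and 0.11 on all arrays. The 7 tested oligodendrocyte markers had medians of 0.36, -0.16 and 0.24 in double knockout replicates 1, 2 and 3, and the 6 endothelial markers -0.041, 0.20 and -0.073. On the wild type arrays these medians lay from -0.32 to 0.041 for oligodendrocytes and from -0.20 to 0.17 for endothelium. Neuronal markers stood at 0.21, 0.23 and 0.21 in double knockout replicates 1, 2 and 3, with 6 of 8 higher, and from -0.13 to 0.17 on the wild type arrays. The 4 tested choroid plexus genes overlapped between groups and were each highest on wild type replicate 3, with summed signals of 185 to 10983 on the wild type arrays and 123 to 4832 on the knockout-labelled arrays. Ttr alone gave 10347 on wild type replicate 3 and 4697 on double knockout replicate 1. Folr1, Clic6 and Kcnj13 read 245, 110 and 281 on the former array and 29.8, 30.6 and 75.1 on the latter. The part of cell makeup in the response genes' differences was not tested.

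The genes whose profile over the 6 arrays was most like the mean of the 9 tested response genes were Gpatch8, Add2, Adcy6, Mtch2 and Tet2, with Pearson's r from 0.992 to 0.9975. Of 19554 other named probe sets 269 (1.38%) had r above 0.9, and with 6 arrays such likeness is a description. Adcy6, an adenylyl cyclase, read 208, 205 and 213 on the wild type arrays and 212, 276 and 248 on the knockout-labelled arrays (log2 difference 0.21, adjusted p = 0.428), and none of the 5 passed the test.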

How the data were processed

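Total RNA of mouse cerebral cortex was measured on 6 arrays, grouped by their descriptions. The authors deposited linear probe set intensity signals, already scaled so that each array's mean after trimming 2% at each end was 150.0; the sources used here name neither software nor build. All columns were used, and 0 pairs of arrays were identical. Array medians were 36.2 to 39.5, and the number of arrays limits precision.

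Probe sets were named where the platform annotation gave 1 symbol. The name was the RefSeq symbol of the annotated gene identifier or, failing that, the platform symbol. This gave 34945 named probe sets, while 932 had several symbols and 9160 none, and 64 controls were left out. Signals under 1 were set to 1 (4.35%) and log2(signal + 16) was taken, so changes of dim probe sets are understated. Probe sets with a mean above the median of all were tested: 22518, with 20 of the 24 member probe sets. Group differences came from limma 3.58.1 under R 4.3.3 (group as the one term of lmFit, eBayes with an intensity trend; two-sided, Benjamini-Hochberg over all tested probe sets). With 3 arrays a group, exact permutation cannot reach a p below 0.1 and was not used. This fit was tested on simulated data. Figures used matplotlib 3.10.9.

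The members and lists were chosen with earlier results of these data known, so no list was tested as such. Named besides members were list genes past the threshold or else the 3 with the largest difference. Both receptors, the targeted genes, a check of sex and the 5 most similar profiles were also named. Cdkn1a, Hif3a, Tgm2, Sgk3, Aqp4, Tbr1, Ttr and probe sets beside a gene's brightest were named after their values were seen. Alternatives were other pseudocounts (1 and 64), scalings, filters (none, or the 75% quantile), trend, array weights, replicate block and arrays left out.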

Additional observations from a re-analysis of the deposited data

How the results depend on the processing

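Of 315 refits of single member probe sets under the alternatives, 303 kept their direction and their side of the threshold, 2 passed it (both Fkbp5, without double knockout replicate 1) and 10 turned direction, all of small differences. The count of member probe sets called was 0 to 2 with 1 array left out, and the median log2 difference of the members 0.27 to 0.51. The count of all probe sets called went from 229 to 10 with no filter, 131 with no intensity trend, 12 when wild type replicate 1 was left out together with double knockout replicate 2, and 34 to 292 with 1 array left out. With 1 array left out, log2 differences ranged from -0.065 to 0.46 for Tsc22d3 1420772_a_at, -0.17 to 0.35 for Pdk4, -0.056 to 0.41 for Klf9 1436763_a_at, -0.014 to 0.36 for Zbtb16 1427638_at, -0.064 to 0.45 for Zbtb16 1439163_at, -0.023 to 0.16 for Nr3c1, -0.085 to 0.35 for Nr3c2, -0.51 to 2.89 for Xist and -2.16 to 0.44 for Eif2s3y. With both of those arrays left out they were -0.083 for Tsc22d3 1420772_a_at, -0.23 for Pdk4, -0.105 for Zbtb16 1439163_at, 0.221 for Nr3c1, -0.31 for Xist and 0.40 for Eif2s3y, and Pdk4 stood at -0.063 with array weights; the cause was not tested. The groups share replicate numbers alone, and same-numbered arrays did not deviate together (r = -0.147, 0.00129 and -0.101). With the replicate block 182 probe sets were called, 0 of them members, and the call of Fam107a was lost (adjusted p = 0.0628). With no filter the calls of Fam107a 1434203_at (adjusted p = 0.113) and Aqp4 (0.108) were lost too, as they were with both of the arrays named above left out (0.206 and 0.155). Dim probe sets, Plin4 among them, had no test.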

Other observations

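Further glucocorticoid or hypoxia genes lay below the filter on dim probe sets and are given as values. Lcn2, which encodes the iron carrier lipocalin 2, read 7.18, 5.28 and 9.65 on the wild type arrays and 13.8, 48.9 and 20.3 on the knockout-labelled arrays, all 3 above wild type. Adm, which encodes the vasodilator adrenomedullin, read 32.8, 14.05 and 20.2 against 28.5, 55.6 and 30.5, with the highest signal in double knockout replicate 2. Map3k6, a kinase gene, read 35.9, 26.2 and 24.5 against 22.5, 41.9 and 28.8, and its groups overlapped. The metallothionein genes, which bind zinc and copper and are known to answer to glucocorticoids, were both tested and did not pass. Mt1 read 3371, 3176 and 4441 on the wild type arrays and 3763, 5235 and 5407 on the knockout-labelled arrays (log2 difference 0.39, adjusted p = 0.289). Mt2 read 2601, 1882 and 2705 against 1839, 2964 and 2744 (log2 difference 0.058, adjusted p = 0.916).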
